A study of Mus musculus with 6 samples.

Results

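The miR-15 and miR-16 family was followed in mouse nephron progenitor cells between embryonic stage E14.5 and the day of birth (P0). Its members were 7 mature miRNAs chosen by name: mmu-miR-15a-5p, mmu-miR-15b-5p, mmu-miR-15b-3p, mmu-miR-16-5p, mmu-miR-16-1-3p, mmu-miR-195a-5p and mmu-miR-497a-5p, written without the species prefix from here on. All 7 were found among the 1034 distinct miRNAs of the deposited table, and all 7 had a mean of 1 TPM or more, the filter that left 670 miRNAs for testing. TPM is a read count divided by length and scaled so that each library sums to 1000000. The study had 6 small RNA libraries from CD1 mice with no genetic change or treatment named in the labels, 3 per stage, each from the pooled kidneys of 1 litter. Cells were freed by a brief enzyme digestion and captured on beads with an antibody to the integrin Itga8, a protein that is not exclusive to nephron progenitors. Nephron progenitors are defined by mRNAs and proteins such as Six2, which small RNA libraries do not measure, so the cell type label was not checked here against its defining markers.

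MicroRNAs of this family guide Argonaute proteins to mRNAs that pair with a short stretch near the guide's 5′ end, the seed. Members with the same seed are expected to share many targets, and the family is best known for restraining cyclins, cyclin-dependent kinases and the survival factor Bcl2. Each hairpin yields a 5p strand, usually the abundant guide in this family, and a 3p strand, usually the scarce passenger. Nephron progenitors divide until shortly after birth and are then used up as they form the last nephrons.

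The sequences are shown because they set which members can act through the same seed and which rows of the table share reads. Bases 2 to 8, counted from the 5′ end, are in capitals, and all sequences are RefSeq entries on build GRCm38.p6, found for 7 of the 7 members.
miR-15a-5p: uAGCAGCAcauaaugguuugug
miR-15b-5p: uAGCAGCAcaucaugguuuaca
miR-16-5p: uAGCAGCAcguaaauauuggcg
miR-195a-5p: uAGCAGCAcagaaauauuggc
miR-497a-5p: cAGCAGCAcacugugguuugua
miR-15b-3p: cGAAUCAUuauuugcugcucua
miR-16-1-3p: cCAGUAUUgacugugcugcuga
The 5 guide strands had 1 seed in common, while the 2 passenger strands had a different seed each. Compared position by position, miR-15a-5p and miR-15b-5p differed at 4 of 22 bases, and miR-16-5p and miR-195a-5p at 2 of 21. miR-16-5p and miR-497a-5p were further apart, at 11 of 22 bases. Of the 10 mature mouse miRNAs in the RefSeq table that carried the seed, 6 were measured: the 5 guides and miR-322-5p. The others, miR-195b, miR-6342, miR-6353 and miR-6419, were not analysed here.

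The members came from 3 loci. On chromosome 14, miR-15a-5p (chr14:61632075-61632096) and miR-16-1-3p (chr14:61631894-61631915) lay on the minus strand in introns of the noncoding gene Dleu2. On chromosome 3, miR-15b-5p (chr3:69009775-69009796) and miR-15b-3p (chr3:69009813-69009834) lay on the plus strand in an intron of Smc4, which encodes a condensin subunit used to compact chromosomes in dividing cells. On chromosome 11, miR-497a-5p (chr11:70234730-70234751) and miR-195a-5p (chr11:70235062-70235082) lay on the plus strand between annotated protein-coding genes, with starts 332 bases apart. The hairpin of miR-497b overlapped that of miR-497a on the opposite strand, and whether the authors' counting used strand is not given in the sources used here. miR-16-5p is encoded in 2 hairpins with identical guides, Mir16-1 in Dleu2 (chr14:61631936-61631957) and Mir16-2 in Smc4 (chr3:69009918-69009939). By the rule of keeping the row with the highest total, its values below are those of the Mir16-2 row.

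Reads recovered from the table numbered 2649506 to 34934526 per library, and the smallest count of a member in a library was 230, so counting error was small for every member. The smallest 2 libraries were both of E14.5. Values of a stage are given in the order of replicates 1, 2 and 3. P0 replicate 1 stood apart from the other P0 libraries: its mean Pearson correlation across the 670 tested miRNAs was 0.948 with the libraries of E14.5 and 0.908 with its own stage. It was the highest of the 3 P0 libraries in 391 of the 670 miRNAs (58.4%) and in 5 of the 7 members, so the stage differences of the members are given with and without it. The typical miRNA was also lower at P0 in TPM. The median log2 difference (P0 minus E14.5) of all 670 was −1.20 in TPM. It was −0.17 once libraries were scaled by the median of ratios, which sets the typical miRNA level between libraries, so both scalings are given for each member.

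miR-16-5p dominated the family at both stages, and the other 4 guides had lower mean TPM at P0 than at E14.5. In TPM, miR-15a-5p, miR-15b-5p and miR-15b-3p fell between E14.5 and P0, with levels 3.27, 3.05 and 2.80 times as high at E14.5 in the group means. miR-16-5p and miR-16-1-3p did not pass the test in TPM, and miR-16-5p rose once libraries were scaled by the median of ratios. Of the 7 members, limma (Benjamini-Hochberg adjusted p under 0.05) called 3 lower and 0 higher in TPM, where 32.8% of all tested miRNAs were called lower and 1.34% higher. At an unadjusted p under 0.05 the counts were 5 lower and 0 higher, beside 46.1% and 2.84% of all tested. Scaled by the median of ratios, 0 members were called lower and 1 higher, against 5.22% and 5.67% of all tested, and at an unadjusted p under 0.05 the counts were 0 lower and 2 higher, beside 18.8% and 15.2%. The median log2 difference of the 7 members was −1.87 in TPM and −0.60 scaled, beside −1.20 and −0.17 for all tested miRNAs.

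**Figure D1:**
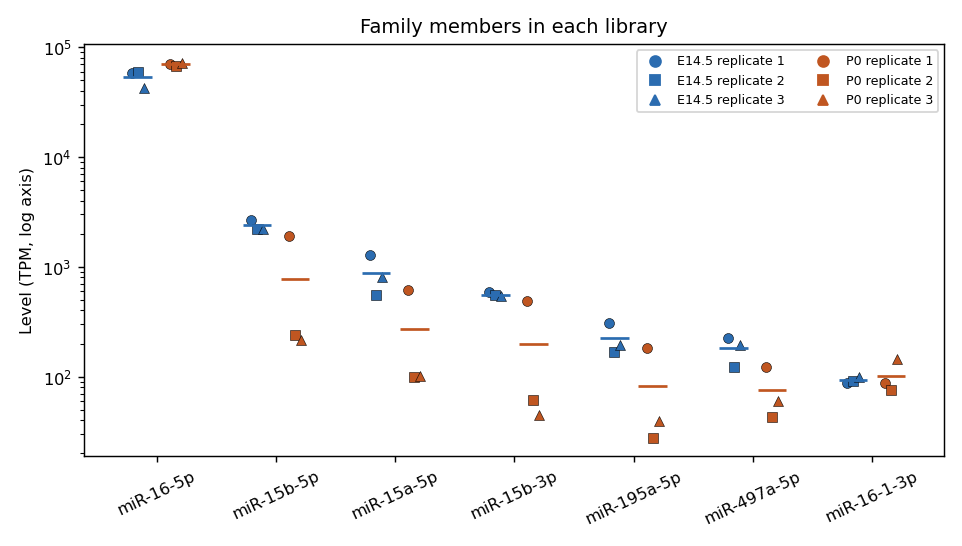
TPM (log axis) of each member in each library; symbols mark the replicate number, colours the stage and horizontal lines the stage means, 3 libraries per stage. miR-16-5p lies between 42969 and 72304 TPM in every library, while P0 replicates 2 and 3 sit well below the other libraries for miR-15b-5p, miR-15a-5p, miR-15b-3p, miR-195a-5p and miR-497a-5p.

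miR-16-5p, the guide encoded in both the Dleu2 and Smc4 clusters, had 58675, 59764 and 42969 TPM in the E14.5 libraries, against 69862, 67895 and 72304 TPM in those of P0. The stages did not overlap, and P0 was the tighter group, with a mean of 70020 ± 2209 TPM against 53803 ± 9398 at E14.5 (SD, n = 3). Among all tested miRNAs, 3.13% were higher at P0 without overlap in TPM. It ranked 1 to 3 among all miRNAs in each of the 6 libraries. In TPM the log2 difference was 0.40 (SE 0.37, limma adjusted p = 0.389). After scaling the 3 P0 libraries were again all above E14.5, as for 15.8% of all tested miRNAs, and the difference was 1.68 (SE 0.44, limma adjusted p = 0.0401). Without P0 replicate 1 it was 0.40 in TPM (limma adjusted p = 0.190) and, scaled, 1.91 (limma adjusted p = 0.00129). Leaving out any one of the other 5 libraries ended the call in scaled values, with limma adjusted p-values of 0.0798 to 0.185. Of the 661 to 682 miRNAs tested in those 5 scaled runs, 0 to 3 were called higher, against 38 of 670 with all libraries. Relative to the median of all miRNAs, miR-16-5p lay 1.59 above in TPM and 1.86 above after scaling.

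miR-15b-5p, the Smc4 partner of miR-16-2, was the second most abundant member. It had 2691, 2223 and 2224 TPM in the E14.5 libraries, against 1889, 237 and 214 TPM in those of P0. The stages did not overlap, but P0 replicate 1 was close to the E14.5 libraries and the other P0 libraries were far below them. Lower values at P0 without overlap were seen for 3 of the 7 members and 46.4% of all tested miRNAs in TPM, and for 0 members and 19.6% of all when scaled. The log2 difference was −2.37 in TPM (SE 0.74, limma adjusted p = 0.0283), or −1.17 relative to the median of all miRNAs. After median-of-ratios scaling it was −1.09 (SE 0.63, limma adjusted p = 0.246), and the stages overlapped because P0 replicate 1 had the highest value of all 6 libraries.

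miR-15b-3p, the other strand of the same hairpin, had 584, 550 and 541 TPM in the E14.5 libraries, against 492, 61.0 and 44.9 TPM in those of P0. The E14.5 libraries were nearly equal and the P0 libraries were spread over a wide range below them. Its log2 difference in TPM was −2.32 (SE 0.78, limma adjusted p = 0.0389). Scaled, it was −1.04 (SE 0.67, limma adjusted p = 0.292). The ratio of miR-15b-5p to miR-15b-3p within a library was 4.60, 4.04 and 4.11 in the E14.5 libraries, against 3.83, 3.84 and 4.67 in those of P0, on the scale of TPM + 1. The mean log2 ratio was 2.09 ± 0.10 in the earlier stage and 2.03 ± 0.16 in the later (SD, n = 3; exact two-sided permutation p = 0.6), a difference smaller than the spread between libraries. Its sign turned when E14.5 replicate 1 was left out, with a difference of 0.0077.

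miR-15a-5p, the Dleu2 partner of miR-16-1, had 1284, 550 and 813 TPM in the E14.5 libraries, against 611, 99.0 and 101 TPM in those of P0. The stages overlapped, since P0 replicate 1 lay above E14.5 replicate 2. The stage difference was −2.18 on the log2 scale in TPM (SE 0.72, limma adjusted p = 0.0354). Scaled, it was −0.90 (SE 0.60, limma adjusted p = 0.312).

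The calls of miR-15a-5p, miR-15b-5p and miR-15b-3p in TPM depended on which libraries entered. Without P0 replicate 1 their log2 differences in TPM were −3.05, −3.39 and −3.39 (limma adjusted p of 6.22e-05, 4.62e-06 and 9.91e-06). They were −1.54, −1.88 and −1.89 after median-of-ratios scaling without that library (limma adjusted p of 0.0105, 0.00104 and 0.00170). Without P0 replicate 1, 5 of the 7 members were called lower and 0 higher in TPM, beside 53.0% and 7.98% of all tested miRNAs. Scaled, 4 were called lower and 2 higher, beside 25.5% and 22.5%. When any one of the other 5 libraries was left out, none of the 3 passed in TPM, with limma adjusted p-values of 0.0596 to 0.137 for miR-15a-5p, 0.0808 to 0.106 for miR-15b-5p and 0.0987 to 0.141 for miR-15b-3p. Of the 661 to 682 miRNAs tested in those 5 runs, 71 to 153 were called lower, against 220 of 670 with all libraries.

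The chromosome 11 pair is a smaller source of the shared seed. miR-195a-5p had 310, 167 and 194.7 TPM in the E14.5 libraries, against 181, 27.8 and 39.1 TPM in those of P0. P0 replicate 1 lay inside the E14.5 range and the other P0 libraries lay below it. Its log2 difference was −1.87 in TPM (SE 0.71, limma adjusted p = 0.0564), or scaled −0.60 (limma adjusted p = 0.489). miR-497a-5p had 224, 121.27 and 196 TPM in the E14.5 libraries, against 121.10, 43.2 and 59.9 TPM in those of P0. Its stages were apart only by the small gap between E14.5 replicate 2 and P0 replicate 1. The log2 difference was −1.35 in TPM (SE 0.59, limma adjusted p = 0.0882), near the median of all miRNAs, and −0.08 in scaled values (limma adjusted p = 0.916). Without P0 replicate 1, both passed in TPM, at −2.67 for miR-195a-5p (limma adjusted p = 1.89e-04) and −1.76 for miR-497a-5p (limma adjusted p = 0.00260). After scaling without that library miR-195a-5p passed, at −1.18 (limma adjusted p = 0.0320), and miR-497a-5p had −0.26 (limma adjusted p = 0.561).

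miR-16-1-3p, the passenger strand that only the Dleu2 hairpin produces, had 87.1, 91.8 and 98.9 TPM in the E14.5 libraries, against 87.0, 75.4 and 144 TPM in those of P0. The P0 libraries lay on both sides of the E14.5 range, and P0 replicate 3 was the highest. The log2 difference was 0.09 in TPM (SE 0.54, limma adjusted p = 0.917) and turned to −0.19 without P0 replicate 3. Scaled, all 3 P0 libraries were above all of E14.5, as for 15.8% of all tested miRNAs, and the difference was 1.36 (SE 0.49, limma adjusted p = 0.0869). Without P0 replicate 1 the difference was 0.17 in TPM (limma adjusted p = 0.708) and 1.67 scaled (limma adjusted p = 0.00602).

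**Figure D2:**
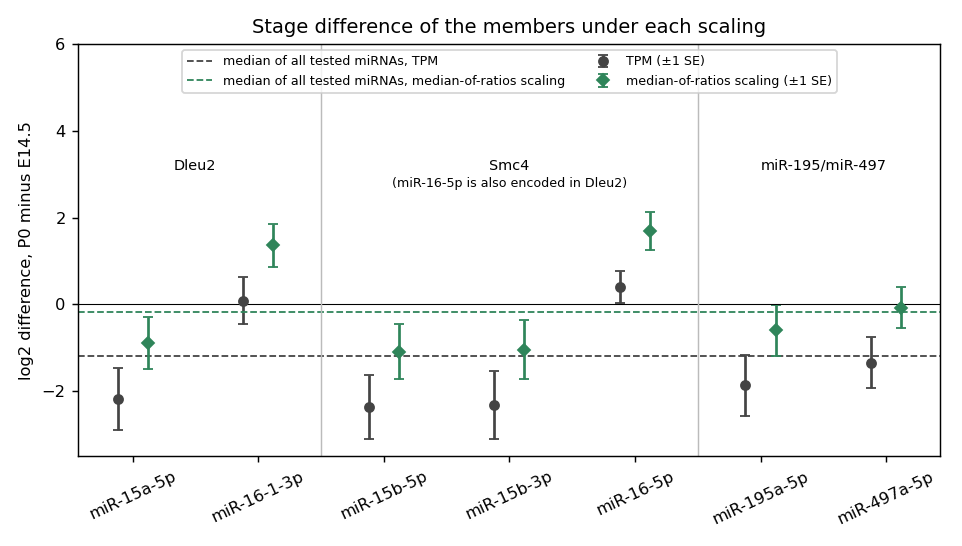
Log2 difference between P0 and E14.5 for each member, with 1 standard error from limma, in TPM (circles) and with median-of-ratios scaling (diamonds), grouped by locus; dashed lines are the median of the 670 tested miRNAs. miR-16-5p and miR-16-1-3p lie above both medians. miR-15a-5p, miR-15b-5p and miR-15b-3p lie below the median of the same scaling, at −2.18, −2.37 and −2.32 in TPM.

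The order of the members by TPM changed little at E14.5 and more at P0. In every E14.5 library and in P0 replicate 1 the first 4 places were taken by miR-16-5p, miR-15b-5p, miR-15a-5p and miR-15b-3p, and miR-16-1-3p was last. In E14.5 replicate 2, miR-15a-5p and miR-15b-3p were nearly equal, and miR-195a-5p and miR-497a-5p exchanged places in E14.5 replicate 3. miR-16-1-3p took rank 4 of the family in P0 replicate 2 and rank 3 in P0 replicate 3, ahead of miR-15a-5p there. Summed over the 5 guides, the family took 6.32%, 6.28% and 4.64% of all TPM in the E14.5 libraries, against 7.27%, 6.83% and 7.27% in those of P0. The means were 5.75% ± 0.96 and 7.12% ± 0.25 (SD, n = 3; exact two-sided permutation p = 0.1, the smallest that 3 libraries against 3 can give). That was 1.24 times as high at P0 in TPM, and 3.05 times after median-of-ratios scaling. Without E14.5 replicate 3 the TPM difference was 0.82 percentage points in place of 1.38. miR-16-5p made up 93.5% ± 1.39 of that sum in the earlier stage and 98.3% ± 1.89 in the later (SD, n = 3; exact permutation p = 0.1).

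Apart from the added 1 TPM, ratios within a library do not depend on how libraries are scaled to each other, and 9 of them were compared. For each TPM + 1 of miR-16-5p, miR-15b-5p had 0.0459, 0.0372 and 0.0518 in the E14.5 libraries, against 0.0271, 0.00350 and 0.00297 in those of P0. Every P0 library was below every E14.5 library, and P0 replicate 1 was the closest to them. miR-15a-5p relative to miR-16-5p was 0.0219, 0.00922 and 0.0189 in the E14.5 libraries, against 0.00876, 0.00147 and 0.00141 in those of P0. The mean log2 differences were −2.77 for miR-15b-5p, −2.57 for miR-15a-5p, −2.26 for miR-195a-5p and −1.74 for miR-497a-5p, each relative to miR-16-5p. The 4 ratios share miR-16-5p as their denominator, and over the other 669 tested miRNAs the same difference had a median of −1.59. All 4 were lower in 3 of 3 P0 libraries than in any E14.5 library, as were 55.6% of the 669, with exact two-sided permutation p = 0.1 each, the smallest possible, and 0.225 after adjustment over the 9 ratios, so none passed 0.05 after adjustment and none could. Without P0 replicate 1 the differences were −3.79, −3.44, −3.07 and −2.16 in the same order. With the Mir16-1 row of miR-16-5p they were −2.12, −1.93, −1.61 and −1.10.

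Ratios among the other guides differed less between the stages. The log2 ratio of miR-15a-5p to miR-15b-5p, which compares Dleu2 with Smc4, was −1.51 ± 0.48 in the earlier stage and −1.32 ± 0.28 in the later (SD, n = 3; exact permutation p = 0.7). The sign of that difference turned to −0.059 without E14.5 replicate 2. The log2 ratio of miR-195a-5p to miR-497a-5p was 0.46, 0.46 and −0.01 in the E14.5 libraries, against 0.58, −0.62 and −0.60 in those of P0 (exact permutation p = 0.4). Between the passenger strands, the log2 ratio of miR-16-1-3p to miR-15b-3p was −2.73, −2.57 and −2.44 in the E14.5 libraries, against −2.49, 0.30 and 1.66 in those of P0. P0 replicate 1 lay within the E14.5 range and the stages overlapped (exact permutation p = 0.2). The guide to passenger ratio of miR-16-5p to miR-16-1-3p on the log2 scale was 9.15 ± 0.35 in the earlier stage and 9.46 ± 0.44 in the later (SD, n = 3; exact permutation p = 0.4).

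**Figure D3:**
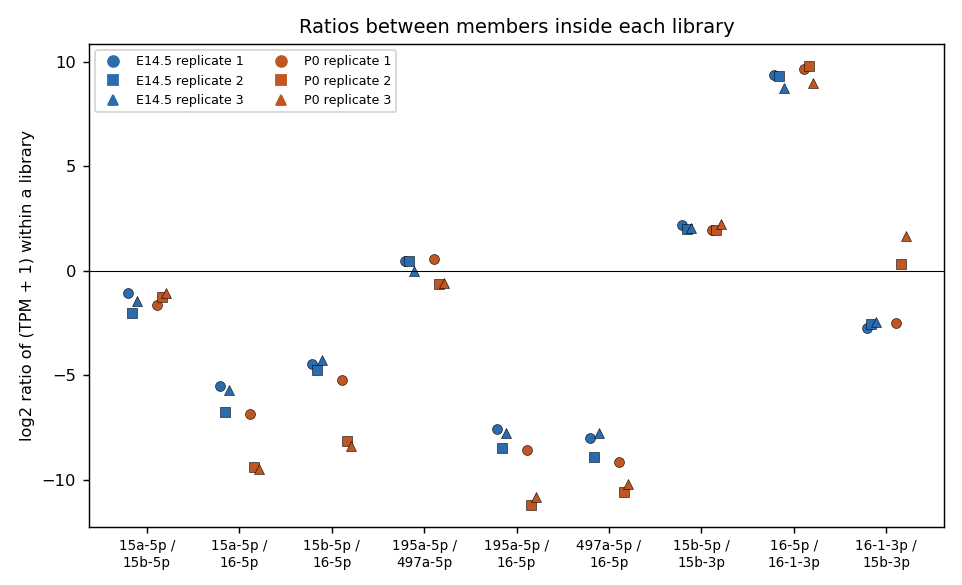
Log2 ratio of TPM + 1 between pairs of members inside each library; symbols mark the replicate number and colours the stage, 3 libraries per stage. The 4 ratios over miR-16-5p are lower in every P0 library than in any E14.5 library, whereas miR-15b-5p over miR-15b-3p stays between 1.94 and 2.22.

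The hairpins of miR-16 are shown because the table splits their reads very unevenly. Both arms are in capitals, the 5p arm first.
Mir16-1: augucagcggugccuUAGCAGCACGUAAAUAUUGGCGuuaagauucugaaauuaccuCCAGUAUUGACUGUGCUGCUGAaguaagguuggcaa
Mir16-2: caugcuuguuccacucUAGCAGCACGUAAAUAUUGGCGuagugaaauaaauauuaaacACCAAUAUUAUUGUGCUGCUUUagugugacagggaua
The 5p arms are identical, and the 3p arms differ at 10 of 22 positions, so the 3p strands can be assigned to a hairpin and the 5p strand by itself cannot. The Mir16-1 row of miR-16-5p had 2961, 2706 and 2184 TPM in the E14.5 libraries, against 3864, 1619 and 1655 TPM in those of P0. That was 4.80% (95% Wilson interval 4.70 to 4.91), 4.33% (4.30 to 4.36) and 4.84% (4.75 to 4.92) of the reads in both rows at E14.5. It was 5.24% (5.21 to 5.27), 2.33% (2.30 to 2.35) and 2.24% (2.21 to 2.26) at P0. Summed over libraries the Mir16-2 row was 24.8 times as large. Among 39 multi-copy miRNAs with a row of at least 10 TPM, the ratio of the largest row to the next had a median of 1.06, and that of miR-16-5p took rank 4. With the Mir16-1 row in place of the Mir16-2 row, the log2 difference of miR-16-5p was −0.25 (limma adjusted p = 0.699), so its direction in TPM depended on the row.

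The 3p strands of the same hairpins gave the opposite picture. miR-16-2-3p (chr3:69009960-69009981) had 36.7, 12.4 and 26.4 TPM in the E14.5 libraries, below miR-16-1-3p in each of these libraries. In P0 replicate 1 it had 8.97 TPM from 312 reads, in P0 replicate 3 it had 0.186 TPM from 4 reads, and in P0 replicate 2 it had 0 reads, which allows up to 0.135 TPM at 3 reads. In TPM it was lower in every P0 library than in any E14.5 library, as were 46.4% of all tested miRNAs. Scaled, its P0 replicate 1 (10.2) lay above E14.5 replicate 2 (8.46). The log2 difference of miR-16-2-3p was −3.40 in TPM (SE 0.84, limma adjusted p = 0.0104) and −2.68 in scaled values (limma adjusted p = 0.0749). With P0 replicate 1 left out it was −4.46 in TPM (limma adjusted p = 8.22e-05) and −3.78 scaled (limma adjusted p = 0.00119), and without E14.5 replicate 3 the TPM call was lost (limma adjusted p = 0.0515). In TPM without E14.5 replicate 3, 71 of 665 tested miRNAs were called lower, against 220 of 670 with all libraries. The hairpin whose row held most of the guide reads was thus the one with the fewer passenger reads, in all 6 libraries. How the authors' counting divided guide reads between the rows was not tested.

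**Figure D4:**
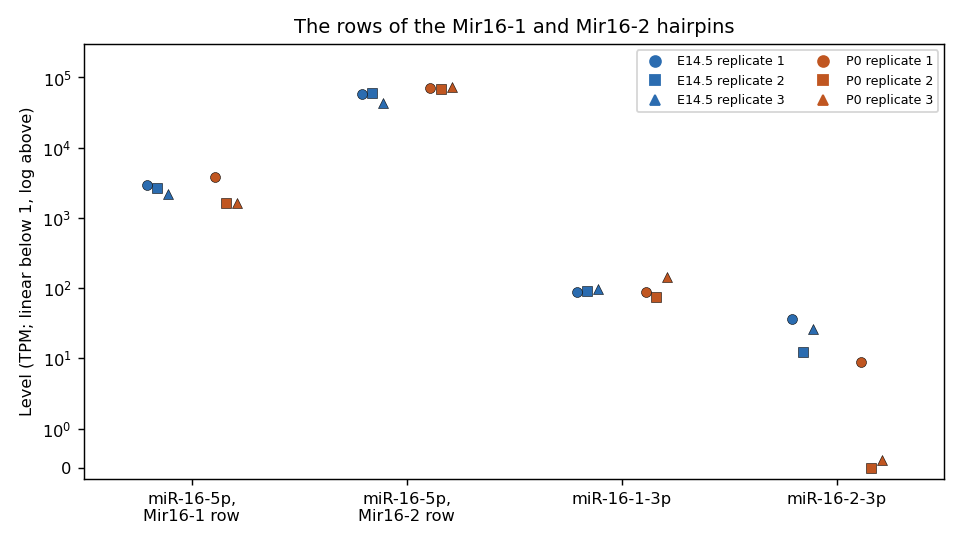
TPM of the guide rows and the passenger strands of Mir16-1 and Mir16-2 in each library (linear below 1, log above); symbols mark the replicate number and colours the stage. The guide is higher in the Mir16-2 row in every library, while the passenger strand is higher from Mir16-1, with miR-16-2-3p at 0 and 0.186 TPM in P0 replicates 2 and 3.

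The remaining relatives were described by name. miR-15a-3p, the Dleu2 passenger beside miR-16-1-3p, averaged 19.5 ± 8.91 TPM in the E14.5 libraries and 11.1 ± 4.60 in those of P0 (SD, n = 3; limma log2 difference −0.72, adjusted p = 0.344). The direction turned in scaled values, at 0.48 (limma adjusted p = 0.600). miR-195a-3p averaged 21.2 ± 5.76 TPM against 8.33 ± 4.59 (SD, n = 3; limma log2 difference −1.34, adjusted p = 0.0957). It passed in TPM without P0 replicate 1, at −1.71 (limma adjusted p = 0.0140). Scaled, miR-195a-3p was at −0.17 with all libraries (limma adjusted p = 0.864) and −0.34 without P0 replicate 1 (limma adjusted p = 0.587). miR-497a-3p had at most 1.64 TPM in any library and did not pass the filter, with 1 read in E14.5 replicate 1 and 0 in P0 replicate 3. miR-497b, read from the strand opposite miR-497a and without the family seed, had at most 2.32 TPM. It had 6, 49 and 13 reads in the E14.5 libraries, against 17, 0 and 0 in those of P0. Its log2 difference was −1.45 in TPM (limma adjusted p = 0.0386) and −1.03 scaled (limma adjusted p = 0.141). With 0.1 TPM added in place of 1, its TPM call was lost (limma adjusted p = 0.0512). Of the X-linked relatives, miR-322-5p, with the family seed, averaged 6386 ± 1797 TPM against 2494 ± 2350 (SD, n = 3). Its log2 difference was −1.72 in TPM (limma adjusted p = 0.0450), or scaled −0.44 (limma adjusted p = 0.573). The TPM call of miR-322-5p was also lost with 0.1 TPM added in place of 1 (limma adjusted p = 0.0531). A filter at 10 TPM ended it as well (limma adjusted p = 0.0508). Leaving out P0 replicate 1 gave −2.45 in TPM (limma adjusted p = 4.56e-05) and −0.94 scaled (limma adjusted p = 0.0315), and leaving out any one of the other 5 libraries ended the TPM call, with limma adjusted p-values of 0.0905 to 0.170. In those 5 runs, 71 to 153 of all tested miRNAs were called lower in TPM, against 220 with all libraries. miR-503-5p, which lacks the family seed, had 1731 ± 83.8 and 733 ± 540 TPM (SD, n = 3; log2 difference −1.48, limma adjusted p = 0.0567). It was −2.04 without P0 replicate 1 (limma adjusted p = 9.12e-05) and −0.19 in scaled values of all libraries (limma adjusted p = 0.788). Scaled without P0 replicate 1, miR-503-5p was at −0.53 (limma adjusted p = 0.118). Of the 6 relatives tested, 3 were called lower (miR-16-2-3p, miR-322-5p and miR-497b) and 0 higher in TPM, beside 32.8% and 1.34% of all tested miRNAs. At an unadjusted p under 0.05 the counts were 5 and 0, beside 46.1% and 2.84%. After scaling limma called 0 in either direction, with 2 lower and 0 higher at an unadjusted p under 0.05, beside 18.8% and 15.2% of all. When P0 replicate 1 was left out, 5 of 6 were called lower in TPM, beside 53.0% of all, and 3 of 6 scaled, beside 25.5%.

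The miRNAs whose TPM profile was most like each guide over the 6 libraries were ranked by Pearson's r of log2(TPM + 1) among 216 miRNAs that averaged 100 TPM or more. For miR-15b-5p they were miR-19a-3p (r = 0.997), miR-186-5p (0.997) and miR-872-3p (0.996). For miR-15a-5p they were miR-30e-5p (0.995), miR-30c-5p (0.994) and miR-872-3p (0.992). For miR-195a-5p they were miR-340-5p (0.990), miR-30b-5p (0.987) and miR-30c-5p (0.987), and for miR-497a-5p miR-143-5p (0.994), miR-203-3p (0.991) and miR-181a-1-3p (0.988). For miR-16-5p the values were lower, with miR-378a-3p at 0.916, miR-30d-5p at 0.791 and miR-676-3p at 0.780. Within the family, miR-15a-5p and miR-195a-5p had r = 0.992 although they come from different chromosomes, while miR-15b-5p and miR-16-5p had r = −0.58 although their Smc4 copies start 143 bases apart. These values are descriptions over 6 libraries that share the stage difference and the position of P0 replicate 1.

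The members also differ in base composition. GC content was 36.4% in miR-15b-3p, 40.9% in miR-15a-5p and miR-15b-5p, 42.9% in miR-195a-5p, 45.5% in miR-16-5p and 50.0% in miR-16-1-3p and miR-497a-5p, and 31.8% in miR-16-2-3p. Across the 582 tested miRNAs with a RefSeq sequence (86.9%), Spearman's rho between GC content and the log2 difference was 0.38 in TPM and 0.35 after scaling. miR-16-1-3p and miR-497a-5p had equal GC content and log2 differences of 0.09 and −1.35 in TPM. The part of base composition in the members' differences was not tested.

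Marker miRNAs of other cell types also differed between the stages, and in bulk samples fewer cells of a type and less RNA per cell cannot be told apart. The 2 endothelial markers summed to 26608 to 44921 TPM at E14.5 and 5634 to 8158 at P0. limma called 2 of 2 lower in TPM, where 32.8% of all tested miRNAs were called lower, and 1 of 2 in scaled values, where 5.22% were. The 5 collecting duct markers summed to 4122 to 23183 and 500.2 to 1542 TPM, with 5 of 5 called lower in TPM and 3 of 5 scaled. The 4 stromal markers summed to 80147 to 94237 and 30930 to 44207 TPM, with 3 of 4 called lower in TPM. Scaled, the stromal sums overlapped, at 54549 to 58176 and 50405 to 75365, and limma called 0 of 4 lower or higher. With P0 replicate 1 left out, 4 of 4 stromal markers were called lower in TPM, beside 53.0% of all tested miRNAs, and 2 of 4 scaled, beside 25.5%. The scaled stromal sums of the other P0 libraries, 58580 and 75365, nevertheless lay above those of E14.5. The 4 leukocyte markers summed to 632 to 1202 and 454 to 629 TPM, and in TPM none of the 4 passed the test. Scaled, their sums overlapped, at 430 to 795 and 717 to 859, and miR-223-3p was called higher at P0 (log2 difference 1.64, limma adjusted p = 0.0401). With the same library left out, 2 of 4 leukocyte markers were called lower in TPM, beside 53.0% of all tested. Scaled, 0 leukocyte markers were called lower and 1 higher, beside 25.5% and 22.5% of all. The counts of called endothelial and collecting duct markers were the same without P0 replicate 1 in both scalings. miR-16-5p is known to be abundant in red cells as well. The 4 erythroid markers summed to 417, 242 and 389 TPM in the E14.5 libraries, against 127, 189.2 and 189.0 in those of P0, with miR-451a called lower in TPM. In scaled values those sums were 276, 165 and 227 against 145, 358 and 333, and limma called 0 of 4. miR-486a-5p made up 262 and 257 of the scaled sums in P0 replicates 2 and 3. Among the erythroid markers, miR-486a-5p was higher at P0 in the means, at 56.2 ± 20.3 and 107 ± 60.5 TPM (SD, n = 3; limma log2 difference 0.76, adjusted p = 0.363, and scaled 2.03, adjusted p = 0.0845). Its difference without P0 replicate 1 was 1.39 in TPM (limma adjusted p = 0.0138) and 2.89 scaled (limma adjusted p = 7.83e-04). In the same libraries miR-451a was at −2.97 in TPM and −1.48 scaled (limma adjusted p of 9.12e-05 and 0.0114), and miR-144-5p at −3.37 and −2.25 (limma adjusted p of 7.52e-04 and 0.0255). The remaining erythroid marker, miR-144-3p, was at −1.10 in TPM and 0.35 scaled there (limma adjusted p of 0.156 and 0.669). None of the listed markers was at 0 in any library. The part of the other cell types in the members' values was not tested.

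The authors' deposited table compared the same stages. By the authors' deposited table, adjusted over all its miRNAs, 0 of the 7 members had an adjusted p-value under 0.05, beside 10.4% of all 1034 miRNAs, and 2 were higher and 2 lower at an unadjusted p under 0.05, beside 9.09% and 12.3% of all. In the authors' deposited table miR-16-5p was at a log2 fold change of 1.56 (SE 0.59, adjusted p = 0.0521) in the Mir16-2 row and 0.82 (SE 0.58, adjusted p = 0.341) in the Mir16-1 row. By the authors' deposited table miR-16-1-3p was at 1.60 (SE 0.65, adjusted p = 0.0756). The authors' deposited table gave miR-15b-5p −1.35 (SE 0.66, adjusted p = 0.140), miR-15b-3p −1.34 (SE 0.68, adjusted p = 0.158) and miR-15a-5p −0.94 (SE 0.70, adjusted p = 0.370). In the authors' deposited table miR-195a-5p had −0.69 (SE 0.67, adjusted p = 0.501) and miR-497a-5p had 0.11 (SE 0.62, adjusted p = 0.920), the latter opposite in sign to its difference in TPM. For miR-16-2-3p, the relative from the Smc4 hairpin, the authors' deposited table gave −5.01 (SE 1.15, adjusted p = 5.99e-04).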

How the data were processed

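The labels' protocols name the QIAseq miRNA kit for single-end sequencing of total RNA. The submitters' processing notes list featureCounts, DESeq2 1.26.0 and mm10, with no roles; trimming, aligner and the use of molecular tags are not given in the sources used here. The authors deposited 1 table of 1104 rows with a TPM value per library, and, per the file headers, further columns for a mean normalised signal, a log2 fold change and its error, the statistic (a score) behind the test, and p-values before and after adjustment. The sign of the deposited log2 fold change was read as P0 over E14.5 from the per-sample values. Multiplied by feature length (end less start), 100% of the deposited TPM values in a library were whole multiples of 1 unit (tolerance 1e-06), taken as 1 read. Recovered reads were used for depth, intervals, limma-voom and an alternative of the ratios. Intervals and floors cover counting error only.

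Of the 52 miRNAs with more than 1 row, only the largest row by summed TPM was kept. A trended fit by limma 3.58.1 under R 4.3.3 was made to log2(TPM + 1) of all 6 libraries over 670 miRNAs, with stage as the only term and Benjamini-Hochberg adjustment. Fold changes on this scale understate the change of low miRNAs. Median-of-ratios factors came from 546 miRNAs above 0 in every library. Ratios and sums were compared with exact two-sided permutation tests in scipy 1.17.1. Levels of different miRNAs also depend on how well each is captured in library making, which was not measured. Annotation was from GENCODE M21 (GRCm38). Named were the members and their relatives by hairpin or seed. miR-503-5p and miR-497b, which lack the family seed, were added to the relatives by name. For each guide, the 3 miRNAs outside the family with the highest correlation were also named. Members, lists and tests were chosen with earlier results of these data known.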

Additional observations from a re-analysis of the deposited data

How the results depend on the processing

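The count of all miRNAs called was 229 in TPM. It was 73 with median-of-ratios scaling, 63 with upper-quartile scaling, 32 and 28 in limma-voom with trimmed-mean and median-of-ratios scaling, and 72 to 420 when 1 library was left out. After median-of-ratios scaling with 1 library left out, chosen after seeing the data, limma called 0 (without E14.5 replicate 1, E14.5 replicate 3 or P0 replicate 2, where 137 to 144 had an unadjusted p under 0.05), 2, 7 or 331 (without P0 replicate 1). Members called lower numbered 3 in TPM, 0 with those scalings and limma-voom, and 0 to 5 with 1 library left out. Members called higher numbered 0 in TPM, 1 with those scalings, and 2 with median-of-ratios scaling without P0 replicate 1. Why the scalings differ was not tested.

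Deviations of same-numbered libraries correlated at 0.193, 0.183 and 0.042, so the replicate numbers were not taken to pair the samples; every library but P0 replicate 3 correlated best with its own number. With the replicate block 247 miRNAs were called from TPM and 67 from scaled values. Members called lower were 4 with the block in TPM, where miR-195a-5p also passed (limma adjusted p = 0.0305), and 0 with the block after scaling, where 1 member was called higher. With the block in TPM, 4 of the 6 relatives were called lower in place of 3, adding miR-503-5p (limma adjusted p = 0.0479).

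Directions that turned were those of miR-497a-5p (0.057 with upper-quartile scaling, 0.0010 in limma-voom with trimmed-mean scaling, and 0.13 and 0.11 after median-of-ratios scaling without E14.5 replicate 1 or P0 replicate 2), miR-16-1-3p (−0.19 without P0 replicate 3, up to 0.27 without another library) and miR-16-5p in its Mir16-1 row (−0.25). Of the relatives, miR-15a-3p turned from −0.72 to 0.48 with median-of-ratios scaling, with or without the block, 0.61 with upper-quartile scaling, and 0.62 and 0.58 in limma-voom with trimmed-mean and median-of-ratios scaling. Median-of-ratios values with 1 library left out were 0.51, 0.19 and 0.73 without E14.5 replicates 1, 2 and 3, and 0.84, 0.50 and 0.093 without P0 replicates 1, 2 and 3. In those without P0 replicate 3, miR-195a-3p (0.16) and miR-503-5p (0.034) also turned. Among the ratios they were miR-15a-5p to miR-15b-5p (−0.059 to 0.41 with 1 library left out), miR-15b-5p to miR-15b-3p (−0.15 to 0.0077 with 1 left out) and miR-16-5p to miR-16-1-3p (−0.34 with the Mir16-1 row). The other 6 ratios and the family sum kept their direction in every alternative run.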
